A study of Mus musculus with 9 samples.

Results

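The 10 genes described here encode folding enzymes and chaperones of the endoplasmic reticulum (ER): 8 protein disulfide isomerase family members (P4hb, Pdia3, Pdia4, Pdia5, Pdia6, Txndc5, Erp44 and Erp29) and the 2 lectin chaperones Calr and Canx. They are 10 of 22173 genes in a table of expression values from mouse hippocampus, and all 10 were among the 13062 genes tested. The genes were picked by known function and chosen by measured values as well, after ER chaperone transcripts had been seen, in these same libraries, to be lower in middle-aged controls and higher after quercetin. Their differences in those 2 comparisons are therefore given as a description, with no p-value for a single gene. How many of the 10 passed a threshold there is printed beside the share over all genes and is no evidence for a difference.

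The hippocampus of C57BL/6 mice, female per the study's methods, was profiled by RNA-seq in 9 libraries. Young control mice (8 weeks, n = 3) and middle-aged control mice (10 months, n = 3) received the solvent, PBS with 10% DMSO. Middle-aged mice of the third group (10 months, n = 3) received quercetin, a plant flavonol, through the tail vein. By their label this lasted 24 days, while the study's results section gives another duration. The study's methods name the same solvent, PBS with 10% DMSO, for quercetin. The libraries are whole tissue, so fewer cells of a type and less RNA per cell cannot be told apart, and neither the labels nor the methods say that each library came from a separate mouse. The p-values below therefore measure the spread between these libraries, which may be technical.

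Secreted and membrane proteins fold in the ER lumen, where disulfide bonds are formed, broken and rearranged. Protein disulfide isomerases carry thioredoxin-like domains whose cysteine pairs exchange disulfides with the folding client, and oxidases of the Ero1 family reoxidize them. Calnexin and calreticulin bind glycoproteins whose N-linked glycan has been trimmed to a single glucose, and they bring in Pdia3 as their thiol partner. Genes of this kind are classical targets of the unfolded protein response, in which the sensors Atf6, Ern1 and Eif2ak3 raise the folding capacity of the ER. In neurons this machinery serves receptors, channels, adhesion proteins and neuropeptides.

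A promoter motif of that response, the ER stress element, was found in Pdia6, Calr and Canx, and these 3 promoters are shown because they are the members that hold it. Each line is 250 bases upstream of the RefSeq transcription start (GRCm38.p6), read 5′ to 3′ on the strand of the gene, and the capitals mark the element, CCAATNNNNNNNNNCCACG on either strand.
Pdia6, chr12:17266339-17266588, plus strand: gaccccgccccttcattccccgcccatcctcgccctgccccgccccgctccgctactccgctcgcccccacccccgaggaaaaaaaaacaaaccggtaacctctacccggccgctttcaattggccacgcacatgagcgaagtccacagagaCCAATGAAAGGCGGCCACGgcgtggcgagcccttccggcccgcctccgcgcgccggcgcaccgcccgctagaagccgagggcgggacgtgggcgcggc
Calr, chr8:84846932-84847181, minus strand: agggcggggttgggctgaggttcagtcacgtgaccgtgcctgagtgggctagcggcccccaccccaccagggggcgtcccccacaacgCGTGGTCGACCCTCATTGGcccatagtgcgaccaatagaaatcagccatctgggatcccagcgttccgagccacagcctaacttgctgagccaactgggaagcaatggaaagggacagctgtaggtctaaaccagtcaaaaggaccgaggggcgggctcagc
Canx, chr11:50325674-50325923, minus strand: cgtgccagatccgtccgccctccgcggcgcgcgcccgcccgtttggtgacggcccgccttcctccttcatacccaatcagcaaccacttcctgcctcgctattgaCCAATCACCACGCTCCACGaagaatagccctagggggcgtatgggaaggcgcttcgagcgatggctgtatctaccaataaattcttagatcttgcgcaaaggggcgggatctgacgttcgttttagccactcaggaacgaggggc
Pdia4, chr6:47813513-47813762, minus strand: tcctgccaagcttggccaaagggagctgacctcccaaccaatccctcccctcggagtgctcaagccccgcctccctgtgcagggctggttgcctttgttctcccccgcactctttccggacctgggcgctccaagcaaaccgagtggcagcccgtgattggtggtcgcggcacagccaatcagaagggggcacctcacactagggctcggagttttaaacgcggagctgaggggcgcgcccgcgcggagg

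The match lay 98 to 80 bases before the start of Pdia6 and 145 to 127 bases before that of Canx. In Calr it lay 162 to 144 bases before the start and in the opposite orientation, so that it reads CGTGG first. Pdia4 is shown as the member with the largest differences and no match in its window.

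RefSeq windows of 250 bases before to 50 bases after the start were matched for 9 of the 10 genes (12 windows), all but Erp29. The ER stress element stood in 3 of the 9 genes, against 39 of 32851 mouse promoter windows (0.119%). Those 39 windows belong to 37 of 27025 genes. Besides Pdia6, Calr and Canx, the 37 include Hspa5, Hsp90b1 and Dnajc3 of the BiP and GRP94 list described below, Creld2 and Ero1b of the other thiol-disulfide proteins, and Calr4. The second form of the element, ATTGG and CCACG with any base between them, was in none of the 9 genes and in 0.0365% of windows. The core of the unfolded protein response element, TGACGTGG, was in 1 member, Txndc5, 138 to 131 bases before one of its starts, and in 0.676% of windows. CCACG, which is part of both ER stress elements and read backwards overlaps that core, was in 8 of the 9 genes and in 32.8% of windows. A match is only a match of letters.

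Expression was deposited as FPKM, fragments scaled to transcript length and to the size of the library, and this scale per length allows levels of different genes to be compared. All 10 genes were detected in all 9 libraries, over a range of more than 100 times. Calr was the most abundant, with a mean above that of 98.6% of tested genes. Canx (95.4%), Pdia3 (94.2%), Pdia6 (91.1%), Erp29 (86.5%) and P4hb (83.6%) followed. Pdia4 (72.5%), Txndc5 (70.2%) and Erp44 (47.1%) were intermediate, and Pdia5 was low, above 7.27% of tested genes. This order of FPKM levels was the same in 9 of 9 libraries for every pair of neighbours except Pdia4 and Txndc5. Pdia4 was above Txndc5 in 6 of 9 libraries and below it in the 3 middle-aged controls, where the ratio of Pdia4 to Txndc5 was 0.752, 0.967 and 0.767.

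**Figure D1:**
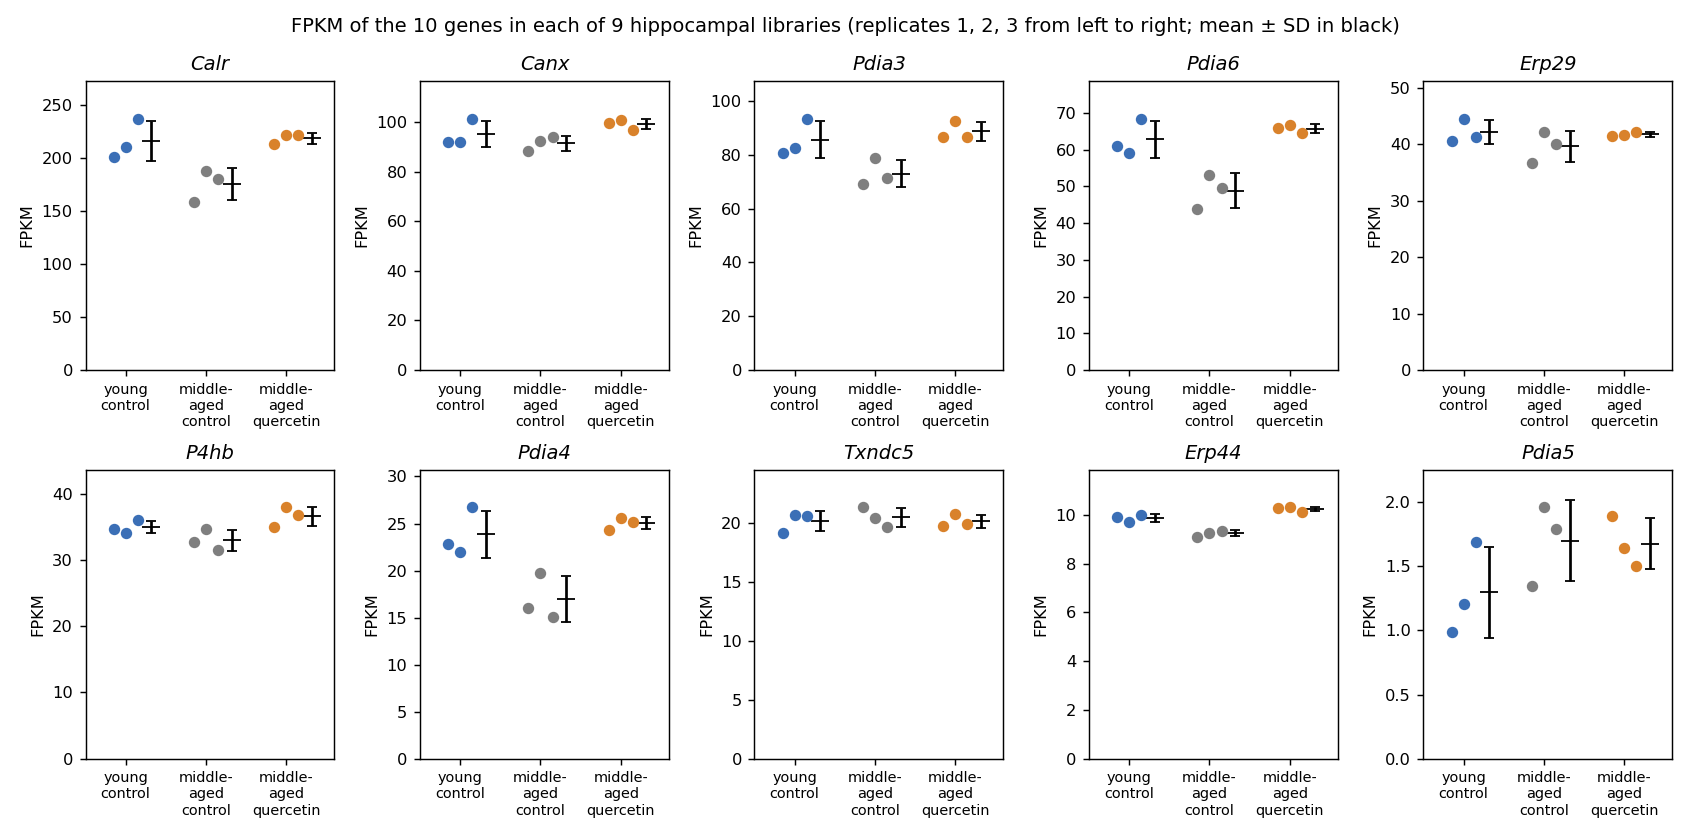
FPKM (vertical axis, from 0, linear) of each of the 10 genes in the 9 libraries, with replicates 1 to 3 from left to right in each group and the mean ± SD beside them. For Pdia4, Pdia6, Calr and Pdia3 the 3 middle-aged controls lie below all libraries of the other groups, whereas Txndc5 stays near 20 FPKM throughout.

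The largest differences were in Pdia4 (chr6:47796141-47813512, GRCm38.p6), the gene of ERp72, an isomerase with several thioredoxin-like domains. Pdia4 had 22.84, 21.96 and 26.71 FPKM in the young controls, 16.01, 19.72 and 15.08 FPKM in the middle-aged controls and 24.34, 25.59 and 25.19 FPKM after quercetin. All 3 middle-aged controls were below the other 6 libraries, and the quercetin libraries lay within the range of the young controls. On the log2(FPKM + 1) scale used for every difference below, Pdia4 differed by -0.47 (SE 0.0916, 95% interval -0.68 to -0.27, n = 3 and 3) between middle-aged and young controls. Between quercetin and middle-aged control it differed by 0.55 (0.34 to 0.75), with a mean FPKM 47.8% higher.

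Pdia6 (chr12:17266589-17284785), the gene of P5, an isomerase known to associate with BiP, was next. Its levels were 60.99, 59.01 and 68.46 FPKM in the young controls, 43.90, 53.20 and 49.52 FPKM in the middle-aged controls, and 65.98, 66.81 and 64.48 FPKM after quercetin. The 3 middle-aged controls were again below all other libraries, and the quercetin libraries were closer to each other (SD 1.18) than those of either control group (SD 4.98 and 4.68). The difference was -0.36 (SE 0.0693, -0.51 to -0.20) with age and 0.42 (0.27 to 0.58) with quercetin, 34.5% in the mean FPKM.

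Pdia3 (chr2:121413902-121438687) encodes ERp57, the thiol partner of calnexin and calreticulin and a part of the MHC class I peptide loading complex. It measured 80.77, 82.80 and 93.52 FPKM in the young controls, 69.08, 78.78 and 71.51 FPKM in the middle-aged controls and 86.68, 92.84 and 86.82 FPKM after quercetin. Middle-aged controls stood apart from both other groups, with the nearest values, 78.78 and 80.77 FPKM, close together. The log2 difference was -0.23 (SE 0.0629, -0.36 to -0.09) with age and 0.28 (0.14 to 0.42) with quercetin, 21.4% in the mean FPKM.

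P4hb (chr11:120560298-120573253), the founding isomerase, is also the beta subunit of collagen prolyl 4-hydroxylase and the small subunit of the microsomal triglyceride transfer protein. Its FPKM was 34.76, 34.15 and 36.06 in the young controls, 32.68, 34.67 and 31.51 in the middle-aged controls and 35.05, 37.95 and 36.86 after quercetin. Young and middle-aged controls overlapped, while the quercetin libraries lay just above the middle-aged controls. The difference was -0.08 (-0.19 to 0.02) with age and 0.15 (0.05 to 0.25) with quercetin.

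Erp44 (chr4:48190711-48279635) retains clients and Ero1 oxidases in the early secretory pathway. It had the smallest spread of the 10 genes, a coefficient of variation within groups of 1.30%, with 9.92, 9.69 and 9.98 FPKM in the young controls, 9.10, 9.27 and 9.35 FPKM in the middle-aged controls and 10.27, 10.30 and 10.13 FPKM after quercetin. None of the 3 groups overlapped, and the means were 9.86 ± 0.153, 9.24 ± 0.128 and 10.2 ± 0.0907 FPKM (SD, n = 3 each). The differences were small, at -0.09 (-0.18 to 0.01) with age and 0.13 (0.04 to 0.23) with quercetin.

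Erp29 (chr5:121444753-121452474) has a thioredoxin-like fold without the active cysteine pair and acts as an escort chaperone. At 40.53, 44.53 and 41.37 FPKM in the young controls, 36.66, 42.18 and 40.09 FPKM in the middle-aged controls and 41.39, 41.63 and 42.18 FPKM after quercetin, its groups overlapped in every comparison. The differences were -0.09 (-0.20 to 0.03) with age and 0.07 (-0.04 to 0.19) with quercetin.

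Txndc5 (chr13:38500266-38528824), the gene of ERp46, was level across the groups. It was at 19.13, 20.69 and 20.56 FPKM in the young controls, 21.30, 20.40 and 19.67 FPKM in the middle-aged controls and 19.72, 20.72 and 19.89 FPKM after quercetin. Its differences were 0.02 (-0.08 to 0.12) with age and -0.02 (-0.12 to 0.08) with quercetin. Pdia5 (chr16:35397308-35490919), the isomerase PDIR, was near the lower limit of the tested genes, with 0.99, 1.21 and 1.69 FPKM in the young controls, 1.35, 1.96 and 1.79 FPKM in the middle-aged controls and 1.89, 1.64 and 1.50 FPKM after quercetin. These values overlapped in every comparison, with a coefficient of variation within groups of 20.4%, the largest of the 10. The differences were 0.24 (-0.04 to 0.52) with age and -0.01 (-0.29 to 0.27) with quercetin, and the added 1 FPKM understates changes of a gene at this level.

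Of the lectin chaperones, Calr (chr8:84842088-84846931) encodes calreticulin, the soluble lectin and a major calcium-binding protein of the ER lumen. Its levels were 200.41, 209.83 and 236.86 FPKM in the young controls, 158.39, 187.28 and 180.44 FPKM in the middle-aged controls and 212.68, 221.10 and 221.05 FPKM after quercetin. Every middle-aged control was below the other 6 libraries. The difference was -0.30 (SE 0.0702, -0.45 to -0.14) with age and 0.32 (0.16 to 0.47) with quercetin, 24.5% in the mean FPKM. Canx (chr11:50293957-50325673) encodes calnexin, the membrane-bound lectin of the same cycle, and it varied much less, at 92.09, 92.00 and 101.32 FPKM in the young controls, 88.13, 92.44 and 93.82 FPKM in the middle-aged controls and 99.49, 100.83 and 96.82 FPKM after quercetin. Young and middle-aged controls overlapped for Canx, and the quercetin libraries lay above the middle-aged controls. Its differences were -0.06 (-0.15 to 0.04) with age and 0.11 (0.01 to 0.21) with quercetin.

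**Figure D2:**
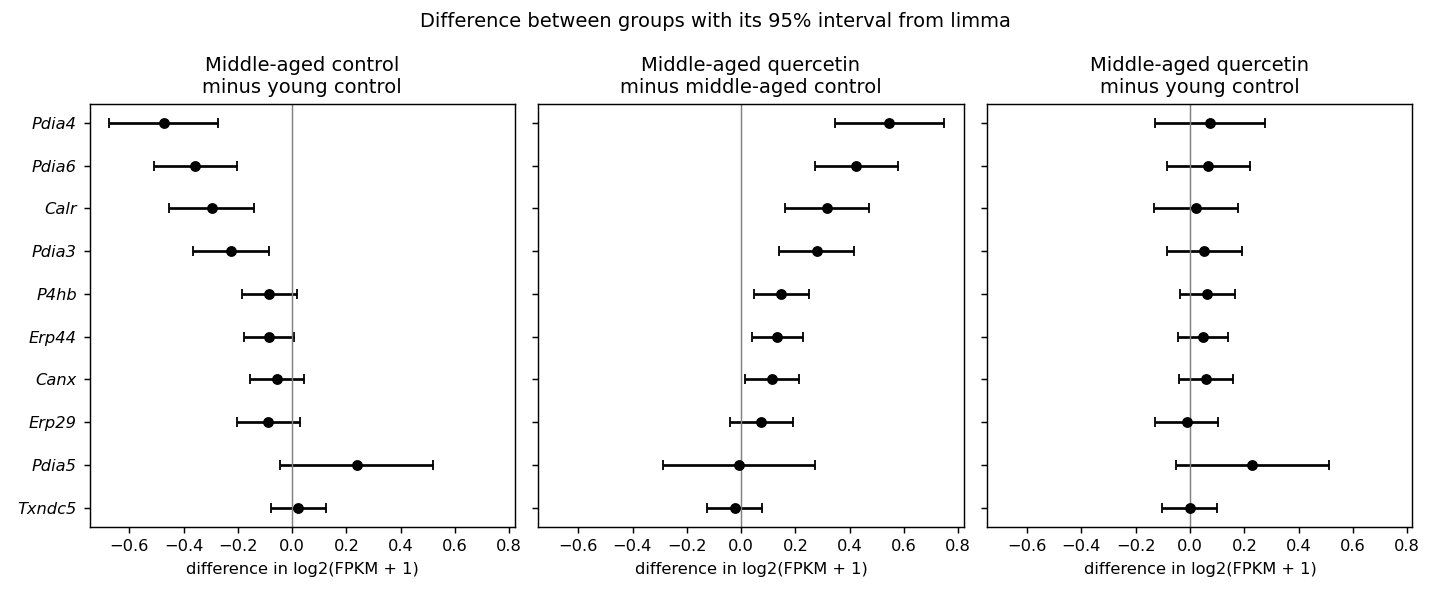
Difference in log2(FPKM + 1) (horizontal axis) of each gene in the 3 comparisons, with the 95% interval from limma and a line at 0. Pdia4 has the largest estimates with age (-0.47) and with quercetin (0.55), and all 10 intervals span 0 in the comparison of quercetin with young controls.

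Counted over the 10 genes, 8 were lower and 2 (Pdia5 and Txndc5) higher in middle-aged than in young controls, with a median difference of -0.09, beside -0.00 over all tested genes. The groups did not overlap and were lower in 5 genes (Pdia3, Pdia4, Pdia6, Erp44 and Calr), and 9.41% of all tested genes were separated in that direction. By limma with Benjamini-Hochberg adjustment, none of the 10 passed an adjusted p of 0.05, and 4 had an unadjusted p under 0.05, all lower. Over all genes 30 of 13062 passed, 0.230%, and 1596 had an unadjusted p under 0.05 by limma, 866 of them lower. With quercetin, 8 of the 10 had a higher and 2 a lower mean than the middle-aged controls, with a median of 0.14 beside 0.01 over all tested genes. The groups were separated upwards in 7 genes (P4hb, Pdia3, Pdia4, Pdia6, Erp44, Calr and Canx), as in 8.97% of all tested genes. Pdia6 alone of the 10 passed the adjusted threshold, as did 22 of all genes, 0.168%. Both comparisons served to choose the genes, and both use the same 3 middle-aged controls, so nothing is read from these counts against the shares over all genes. The share of all genes with the middle-aged controls below both other groups is not given here.

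Middle-aged control 1 was the lowest of the 9 libraries for 6 of the 10 genes, and young control 3 the highest for 5. Without middle-aged control 1 the quercetin difference was 0.51 for Pdia4, 0.35 for Pdia6, 0.25 for Calr and 0.24 for Pdia3. The call of Pdia6 given above is a description too, and it hung on single libraries: it was made in 2 of 9 fits with 1 library left out, those without young control 3 or middle-aged control 2.

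A comparison of quercetin-treated mice with young controls was not itself used to choose the genes, but it uses the same libraries. It equals the sum of the other 2 differences, so the choice bears on it and its p-values are a description as well. None of the 10 passed the adjusted threshold and none had an unadjusted p under 0.05. Adjusted p ranged from 0.818 for Pdia5 to 0.998 for Txndc5 (limma), and 10 of all tested genes passed, 0.0766%. An unadjusted p under 0.05 by limma was reached by 823 of 13062 genes. The median difference was 0.06, beside 0.00 over all tested genes, with 8 positive and 2 negative. Erp44 was the only member whose groups did not overlap (higher after quercetin), where 12.3% of all tested genes were separated in either direction. The 95% intervals take no account of that choice and are a description too. They were -0.13 to 0.27 for Pdia4, -0.09 to 0.22 for Pdia6, -0.13 to 0.18 for Calr and -0.09 to 0.19 for Pdia3. Those of Canx and Erp44 were -0.04 to 0.16 and -0.04 to 0.14. For Pdia5 the interval was wider, from -0.05 to 0.51. Equality of the groups is not shown by such p-values.

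Choroid plexus transcripts were very uneven between libraries. All 10 markers of that epithelium were highest in young control 3 and middle-aged quercetin 2, where they summed to 2498 and 967 FPKM, against 7.66 to 37.9 FPKM in the other 7 libraries. Without these 2 libraries the age difference was -0.39 for Pdia4, -0.29 for Pdia6, -0.23 for Calr and -0.16 for Pdia3, and the quercetin difference was 0.53, 0.41, 0.31 and 0.25. For Canx the age difference became -0.01, and for Pdia5 it became 0.36. Neuron (5 of 5), astrocyte (4 of 4), oligodendrocyte (4 of 4) and microglia (4 of 4) markers were at or above 1 FPKM in every library. Astrocyte markers summed to 409 to 452 FPKM in young controls, 476 to 487 in middle-aged controls and 469 to 493 after quercetin. Microglia markers summed to 48.4 to 49.0 FPKM in young controls, 51.3 to 57.3 in middle-aged controls and 49.25 to 54.8 after quercetin. For both cell types the sums of the 2 control groups did not overlap, and their part in the results was not tested. Plasma cells, which hold much of this machinery, left little trace: 3 of 4 markers had values, and they summed to 0.62 to 0.97 FPKM.

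Ratios within a library do not depend on how that library was scaled, and they separate the members further. Taken against Canx, Pdia4 was at 0.248, 0.239 and 0.264 in the young controls, 0.182, 0.213 and 0.161 in the middle-aged controls and 0.245, 0.254 and 0.260 after quercetin. Pdia6 was at 0.662, 0.641 and 0.676, then 0.498, 0.576 and 0.528, then 0.663, 0.663 and 0.666 times Canx in the same order of groups. The 2 lectin chaperones also shifted against each other, with Calr at 2.18, 2.28 and 2.34 times Canx in the young controls, 1.80, 2.03 and 1.92 times in the middle-aged controls and 2.14, 2.19 and 2.28 times after quercetin. For Pdia3 the ratio was 0.877, 0.900 and 0.923, then 0.784, 0.852 and 0.762, then 0.871, 0.921 and 0.897. For all 4 ratios, those of the members with the largest differences, the middle-aged controls were below every other library. How many of all genes show this is not given here. Txndc5 to Canx went the other way with quercetin, from 0.242, 0.221 and 0.210 in middle-aged controls to 0.198, 0.205 and 0.205. Pdia5 to Canx averaged 0.0135, 0.0185 and 0.0169 in young controls, middle-aged controls and quercetin-treated mice. Mean ratios of P4hb to Canx (0.368, 0.361 and 0.370 in the 3 groups) and of Erp44 to Canx (0.104, 0.101 and 0.103) were close together. Within the summed FPKM of the 10 genes, Pdia4 made up 4.02% in young controls, 3.32% in middle-aged controls and 4.12% after quercetin, while Canx made up 16.1%, 18.0% and 16.3%. That sum was 562, 576 and 637 FPKM in the young controls, 477, 540 and 513 in the middle-aged controls and 597, 619 and 605 after quercetin.

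**Figure D3:**
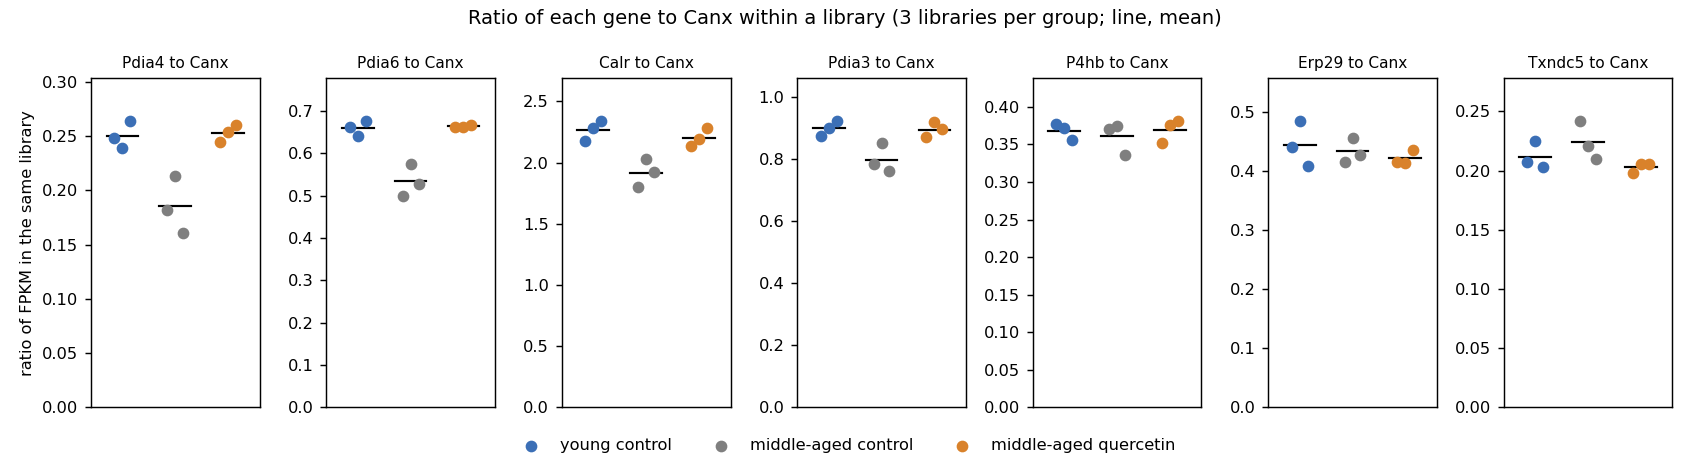
Ratio of FPKM to Canx in the same library (vertical axes, linear, from 0) for 7 genes, with 3 libraries per group as points and the group mean as a line. For Pdia4, Pdia6, Calr and Pdia3 the middle-aged controls lie below the other 6 libraries, while for P4hb and Erp29 the groups overlap. For Txndc5 the quercetin libraries lie below the middle-aged controls. Erp44 and Pdia5 are not drawn.

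The members varied together to very different degrees. Across the 9 libraries the 45 pairs of genes had a median Pearson r of 0.635 (range -0.339 to 0.972), beside 0.008 over all pairs of tested genes. The genes were chosen with a shared pattern over these groups in view, so a high median here was partly built in. After each group's mean was taken off, the median was 0.514 and 41 of 45 pairs were positive. It was 0.447 without the 2 libraries rich in choroid plexus transcripts. Pdia4, Pdia6, Calr and Pdia3, a set named after their values were seen, had a median of 0.962 over their own pairs and 0.872 within groups. Txndc5 stood aside, with an r of -0.339 with Erp44. Pdia5 followed Canx and Pdia6 within groups (0.872 and 0.854) but hardly followed Pdia6 over the 9 libraries (0.06). The points of each correlation share library and scaling, and these values are descriptions of 9 libraries.

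**Figure D4:**
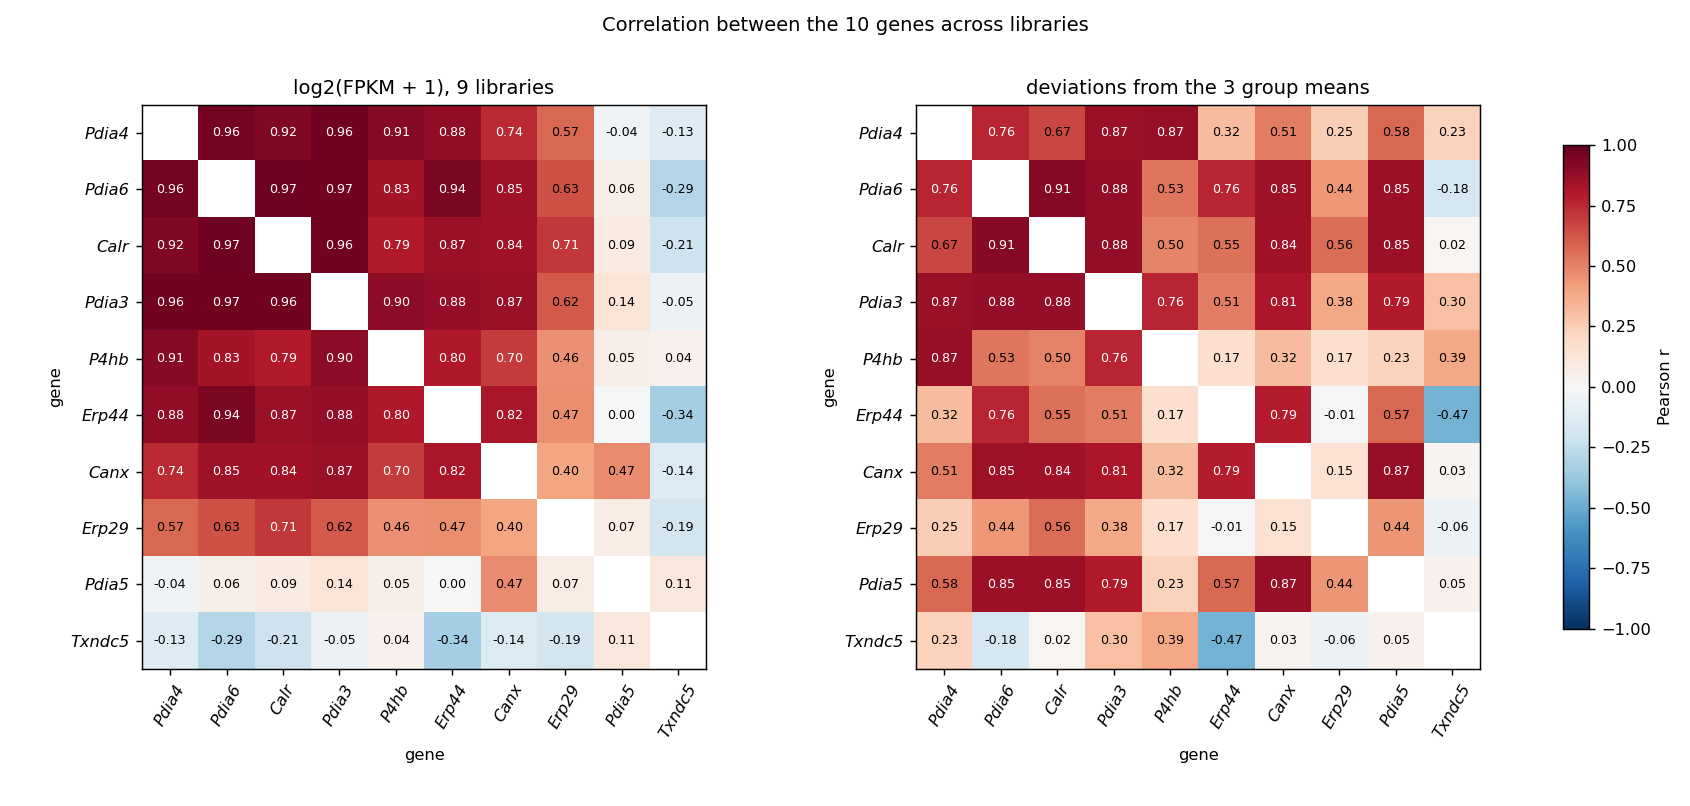
Pearson correlation of log2(FPKM + 1) between the 10 genes over 9 libraries (left) and of the deviations from the 3 group means (right), on a colour scale from -1 to 1. Pdia4, Pdia6, Calr and Pdia3 form a block of high values in both panels, and the row of Txndc5 is near 0 or below in most cells.

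The genes outside the 10 whose pattern was most like their mean standardized level were Slc35b1 (r = 0.983), Nxf1 (0.955), Slfn5 (0.948), Hsp90b1 (0.946) and T2 (0.945), each over 9 libraries. Slc35b1, a nucleotide carrier of the ER membrane, was at 23.20, 23.37 and 24.55 FPKM in the young controls, 22.51, 23.40 and 22.79 FPKM in the middle-aged controls and 23.99, 24.57 and 23.91 FPKM after quercetin. Its likeness is thus one of order, over a far smaller range than that of Pdia4. Nxf1 encodes an mRNA export factor and Hsp90b1 encodes GRP94, the HSP90 of the ER. Slfn5 was at 1.13 to 2.86 FPKM and T2 at 0.72 to 1.22 FPKM, near the filter of 1 FPKM. These genes were picked for the highest r among the tested genes.

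Other ER genes were read from lists by function. Of BiP, GRP94 and their partners (12 of 13 tested), 1 gene passed with age and 3 passed with quercetin. Over all tested genes 0.230% passed with age and 0.168% with quercetin. Hspa5, the gene of BiP, the HSP70 of the ER and a regulator of the stress sensors, was at 150.46, 138.53 and 161.43 FPKM in the young controls, 90.58, 114.43 and 94.31 FPKM in the middle-aged controls and 151.35, 168.59 and 143.58 FPKM after quercetin. It fell with age (-0.59, adjusted p = 0.0262, limma) and rose with quercetin (0.63, adjusted p = 0.0290, limma). With quercetin Manf (0.55, adjusted p = 0.0380), a secreted ER stress protein, and Sdf2l1 (0.66, adjusted p = 0.0407), a partner of BiP, also rose by limma. Of 9 fits with 1 library left out, Hspa5 passed in 5 with age and 4 with quercetin, and Manf and Sdf2l1 each passed in 2. None of the 3 passed without the 2 libraries rich in choroid plexus transcripts, with adjusted p over all alternatives of up to 0.172 for Hspa5, 0.207 for Manf and 0.183 for Sdf2l1 with quercetin and 0.132 for Hspa5 with age. These genes had been seen before the 10 were chosen, so they are no independent evidence. The 12 genes had a median of -0.24 with age and 0.29 with quercetin, and Hsp90b1 differed by -0.27 and 0.34 without passing. Pdia6 differed less than Hspa5, so that the ratio of Pdia6 to Hspa5 averaged 0.418, 0.492 and 0.427 in young controls, middle-aged controls and quercetin-treated mice.

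Among 22 of 24 other thiol-disulfide proteins of the ER that were tested, none passed in any of the 3 comparisons by limma (3, 2 and 0 had an unadjusted p under 0.05), and their medians were -0.02 with age and 0.01 with quercetin. Over all 13062 tested genes 1596, 1525 and 823 had an unadjusted p under 0.05 by limma in those comparisons. Creld2, a thiol isomerase that binds folding clients, was at 10.94, 11.46 and 10.54 FPKM in the young controls, 5.32, 9.03 and 6.96 FPKM in the middle-aged controls and 11.82, 10.99 and 10.29 FPKM after quercetin. Its groups were separated in both comparisons (-0.59 and 0.59), with adjusted p of 0.0949 and 0.121 (limma). The ER peroxidase gene Gpx8 was at 7.43 FPKM in young control 3, one of the libraries rich in choroid plexus transcripts, and at 1.52 to 3.82 FPKM in the other 8. It differed by -0.88 with age and 0.29 with quercetin. Over the alternatives its age difference lay between -1.15 and -0.58. The oxidases that recharge the isomerases differed little, by 0.08 and -0.07 for Ero1a and by -0.06 and 0.14 for Ero1b.

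The cycle of glucose trimming that feeds calnexin and calreticulin (10 of 12 genes tested) had no gene past the threshold by limma (5, 3 and 0 at an unadjusted p under 0.05), with medians of -0.02 with age and 0.03 with quercetin. Its largest quercetin differences were those of Mlec, which encodes an ER lectin (0.15), and of Uggt2, of the family of folding-sensor glucosyltransferases (-0.14). Of 12 regulators of the unfolded protein response, none passed (3, 2 and 1 unadjusted), with medians of -0.00 and 0.05. For both lists the unadjusted counts over all 13062 tested genes were 1596, 1525 and 823, as above. Xbp1, the transcription factor activated by splicing, was at 34.35, 35.04 and 36.89 FPKM in the young controls, 26.00, 33.19 and 26.46 FPKM in the middle-aged controls and 36.17, 38.27 and 39.03 FPKM after quercetin. It differed by -0.31 and 0.40, and gene-level FPKM do not tell its spliced form. The stress-induced factor gene Ddit3 differed by -0.24 and 0.21.

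P4hb also serves as a subunit of other enzymes, and among the 4 genes whose products hold or need it, P4ha1 rose with quercetin (0.39, adjusted p = 0.0435, limma). P4ha1, the catalytic subunit of collagen prolyl 4-hydroxylase, was at 23.14, 22.02 and 24.06 FPKM in the young controls, 17.62, 20.05 and 17.88 FPKM in the middle-aged controls and 22.81, 24.73 and 25.94 FPKM after quercetin. The middle-aged controls were below all other libraries, whereas the control groups overlapped for its partner subunit P4hb. The call held in 3 of 9 fits with 1 library left out, and the adjusted p ranged from 0.0266 to 0.210 over the alternatives. This list too was made with earlier results known, so the call is no independent evidence. Over all genes 22 of 13062 passed with quercetin, 0.168%. The 4 genes had medians of -0.23 and 0.23.

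**Figure D5:**
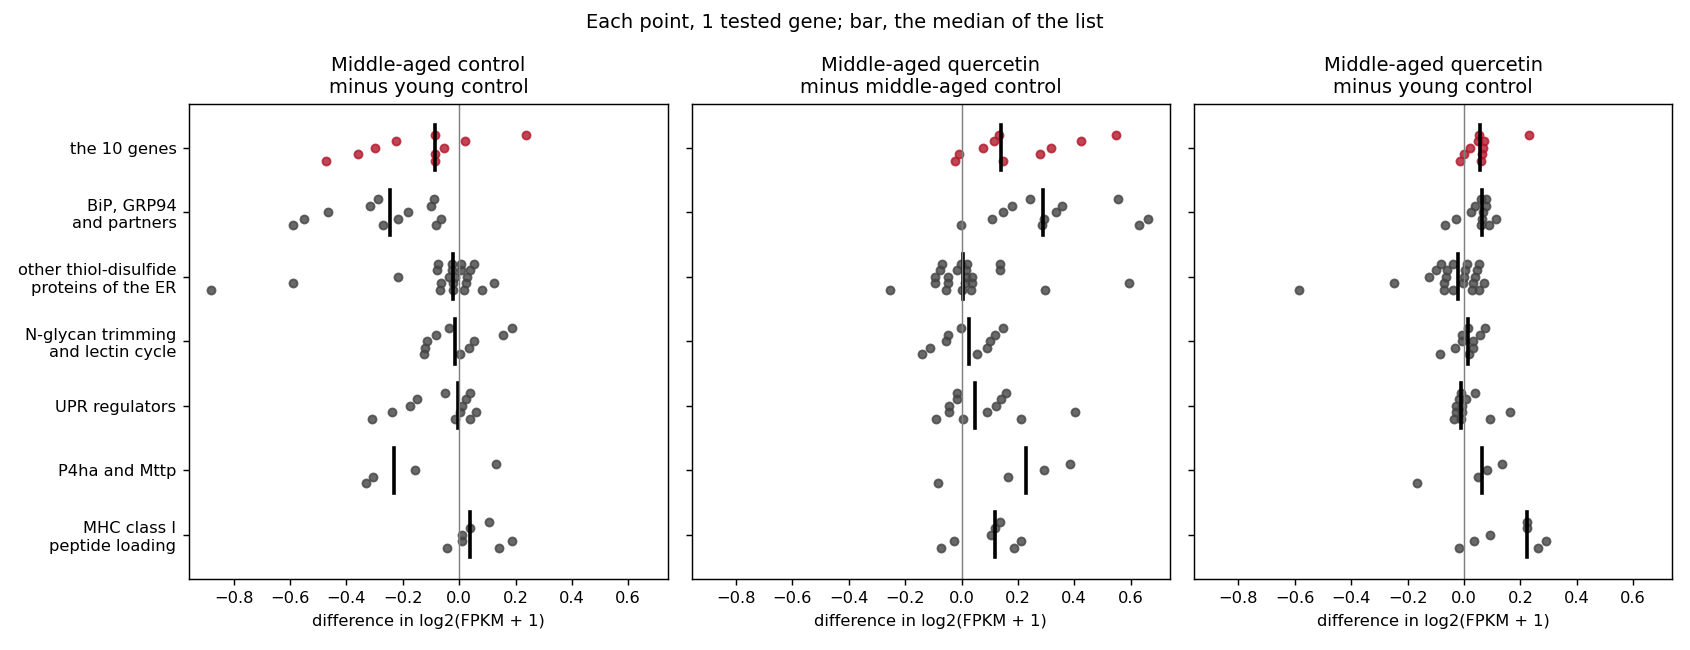
Difference in log2(FPKM + 1) (horizontal axis) of every tested gene of the 10 described and of 6 other ER lists, in the 3 comparisons, with a bar at each list's median. The medians of BiP, GRP94 and partners (-0.24 and 0.29) lie farther from 0 than those of the 10 genes (-0.09 and 0.14), while the other thiol-disulfide proteins centre near 0.

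Some of these genes overlap others on the genome (GRCm38.p6), and the sources used here do not state whether reads were counted by strand. Pdia3 shares 697 bases with Catsper2 (2.18 FPKM on average), Pdia6 shares 65 with Atp6v1c2 (0.604 FPKM) and Txndc5 shares 49 with Bmp6 (3.41 FPKM), so reads in those stretches cannot be told apart. In addition, Txndc5 shares 922 bases with Gm31834, a long non-coding RNA gene.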

How the data were processed

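Hippocampal RNA of 9 mouse libraries was sequenced, and the authors deposited FPKM for 22173 genes, 18798 of them with values. The paper names HISAT2, Bowtie2 and RESM, while TopHat2, Cufflinks and GRCm38 appear in the submitters' processing notes, and the pipeline behind the deposited FPKM was not given in the sources used here. FPKM carries no absolute depth, so the depth is unknown and no interval for counting error is given; median-of-ratios factors lay between 0.996 and 1.02. Genes were kept if 3 or more of the 9 libraries reached 1 FPKM, and limma 3.58.1 (R 4.3.3, trended empirical Bayes) was run on log2(FPKM + 1) over all 9 libraries, with Benjamini-Hochberg adjusted p under 0.05. The code was checked on simulated data.

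The members and lists were chosen with earlier results of these data known. Named from the other lists were genes past the threshold, otherwise the 2 with the largest quercetin difference, plus Hspa5, Hsp90b1, Xbp1, Ero1a and Ero1b. Creld2 and Gpx8 fall under that rule. The 5 genes most like the members were named as well. Alternatives were a pseudocount of 0.1, omission of the filter, a minimum mean of 5 FPKM, median-of-ratios and quantile scaling, no trend, 6-library fits, a replicate block, and leaving out each library or young control 3 with middle-aged quercetin 2. Correlations without those 2 libraries were added after seeing the data. Promoter sequences and gene positions are RefSeq's (GRCm38.p6). Figures were drawn with matplotlib 3.10.9 (Python 3.11.15). Protein sequences were not used here.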

Additional observations from a re-analysis of the deposited data

How the results depend on the processing

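The 1 member difference called in the main fit was that of Pdia6 with quercetin. It was called in 6 of 18 alternatives and kept its sign under all 18. Some small differences did not: that of Pdia5 with quercetin kept its sign in 12 of 17, and that of Txndc5 with age in 16 of 18. The median of the members tested (without Pdia5 at a mean of at least 5 FPKM) stayed between -0.13 and -0.08 with age, between 0.13 and 0.16 with quercetin, and between 0.03 and 0.10 for quercetin against young controls, where 0 members passed under all 18 settings. With age, 2 members passed (Pdia4 and Pdia6) when genes needed a mean of at least 5 FPKM, where 66 genes passed in place of 30; leaving out 1 library gave 0 to 2 (2 without middle-aged control 2). With quercetin, where Pdia6 passed, 2 members (Pdia4 and Pdia6) passed with a mean of at least 5 FPKM, with median-of-ratios scaling and with quantile scaling. None passed without a filter, without the trend, in 6-library fits or without young control 3 and middle-aged quercetin 2, and leaving out 1 library gave 0 to 2 (2 without young control 3 or middle-aged control 2, and 0 without any of the other 7). Over all genes the quercetin count, 22 here, was 1 without a filter, 32 at a mean of 5 FPKM, 14 in 6-library fits, 2 without the trend and 1 without those 2 libraries, and 3 to 29 with 1 library left out. The age count, 30 here, was 17, 66, 22, 17, 9 and 12 to 47 under the same settings, and that of quercetin against young controls, 10 here, was 4, 9, 4, 7, 4 and 4 to 7. Fewer samples or other numbers of genes tested enter some of these; otherwise the cause was not tested.

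Same-numbered libraries of different groups share only a number. Their deviations correlated at -0.198 to 0.118, and the best match had the same number in 6 of 18 cases. With a replicate block, 0 members passed with quercetin and 13 genes in all, and 20 genes passed with age.

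With 3 libraries a group and no counts, the intervals of small differences, such as both of Erp29 and that of Canx with age, span 0, and Pdia5 lies near the filter.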

Other observations

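Pdia3 and Calr also serve in MHC class I peptide loading. None of the 7 genes of that list passed the threshold in any comparison by limma (0, 0 and 1 had an unadjusted p under 0.05), and the medians were 0.04 with age, 0.12 with quercetin and 0.22 for quercetin against young controls. Over all 13062 tested genes those unadjusted counts were 1596, 1525 and 823. B2m, the light chain, was at 72.44, 110.01 and 63.81 FPKM in the young controls, 75.21, 88.62 and 78.19 FPKM in the middle-aged controls and 73.99, 100.78 and 109.04 FPKM after quercetin. Tap2, a subunit of the peptide transporter, was at 4.38, 4.98 and 3.78 FPKM, then 4.36, 4.48 and 4.67 FPKM, then 4.70, 5.50 and 5.61 FPKM in the same order of groups. The quercetin libraries were thus above the middle-aged controls for Tap2 (0.19, interval -0.01 to 0.38) but not for B2m (0.21, -0.19 to 0.62).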
